A study of Mus musculus with 56 samples.

Results

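The mammalian mitochondrial ribosome translates the few messenger RNAs encoded by mitochondrial DNA, all of which give core subunits of the respiratory chain and ATP synthase. Its proteins are encoded in the nucleus, made in the cytosol and imported, and they assemble with mitochondrial ribosomal RNA into a small subunit that reads the message and a large subunit that joins amino acids. The liver is rich in mitochondria, and its fuel supply changes between fed and fasted hours. The genes of these proteins were taken as the protein-coding rows of the gene table whose mouse symbol begins with Mrpl or Mrps followed by a number. This gave 78 genes of 25415 in the table, 49 named Mrpl and 29 named Mrps. Mrps18a and Mrps30 belong to the large subunit in spite of their names, and Mrps36 is a component of the 2-oxoglutarate dehydrogenase complex, so the set held 51 genes of the large subunit, 26 of the small subunit and Mrps36. All 78 had rebuilt values and none had a library at 0.

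The livers came from 56 female C57BL/6J mice aged 9 weeks, kept under 12 h of light per day. For 7 days food was given only by day (daytime-restricted feeding, DRF, 28 livers) or only by night (nighttime-restricted feeding, NRF, 28 livers, the reference). Livers were sampled at zeitgeber times (ZT, in hours, with ZT0 at the onset of light) 0, 4, 8, 12, 16, 20 and 24, from 4 animals per regimen and time. Each liver is a whole-tissue sample, so less RNA per cell and fewer cells of a type cannot be told apart.

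Values are given as scaled counts, rebuilt from the deposited numbers and normalised per library, where 1 unit stood for 304 to 723 recovered counts. Each library's recovered counts came to a total from 141 M to 324 M. These totals exceed the stated sequencing depth, so the counts are not called reads. Replicates of a group correlated across genes at r between 0.965 and 0.990. Hepatocyte markers (5 of 6 listed were tested) summed to 27509 scaled counts or more in every liver, and exocrine pancreas markers (2 of 4) to at most 0.839. Of 2 adipocyte markers, 0 were tested. Erythroid markers summed to 500 to 1876 under DRF and 422 to 1246 under NRF, and Kupffer cell markers to 510 to 890 and 494 to 1009. A log2 difference refers to log2(scaled count + 1) and so is smaller than the true change where values are low. Differences were tested two-sided with limma over all 25075 genes with rebuilt values, and a gene was called at an adjusted p (Benjamini-Hochberg) under 0.05.

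Mitoribosomal protein genes differed widely in level. Per kb of exon, the median over the 78 genes was 4.1 scaled counts. Mrps28, of the small subunit, had the highest mean level per kb, at 388 ± 71.7 (SD, n = 56), followed by Mrpl14 at 65.7 ± 14.8 and Mrps12, whose bacterial homolog lies at the decoding site, at 45.5 ± 10.02. The range of mean ± SD of Mrps28 lay apart from the others, while those of Mrpl14 and Mrps12 overlapped. The lowest levels per kb were those of Mrps25 (0.29 ± 0.0449), Mrpl32 (0.346 ± 0.053) and Mrpl53 (0.413 ± 0.119), whose ranges of mean ± SD overlapped from one to the next. Levels between genes carry limits. Mrps28 spans 121773 bases for 783 bases of exon, and across the 72 genes with an annotated length the mean scaled count rose with the span of the gene (Spearman rho 0.321) and had a rho of -0.015 with exon length. Over 15047 protein-coding genes the values were 0.306 and 0.255. Whether reads from introns were counted was not tested. Exon bases overlapped another gene on the same strand in 8 of the 78 genes and on the opposite strand in 28. For Mrpl53, 87.97% of exon bases lay in Gm42688 on the same strand, and for Mrps25, 69.8% lay in Nr2c2 on the opposite strand, so their values are uncertain. The 4 processed pseudogenes listed with such symbols had means of at most 0.0569 scaled counts.

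Promoter sequences are shown for 5 genes that hold the ETS motif given below. Of these, 3 are of the class with peaks 8 to 12 h apart between the regimens and 2 of the class with peaks up to 4 h apart. RefSeq promoters (GRCm38.p6) were matched for 69 of the 78 symbols, each window running from 250 bases before to 50 bases after the start. The ETS motif CCGGAAG, the core sequence bound by factors such as GABP, was found on either strand in 26 of the 69 genes (37.7%), against 9.93% of all 27025 genes with a promoter and 17.9% of 11628 protein-coding ones. The YY1 motif AAGATGGCG was found in 8 (11.6%), against 1.64% of all genes and 3.08% of protein-coding ones. The NRF1 motif GCATGCGC was also found in 8 (11.6%, against 3.05% and 5.37%). The E-box CACGTG, bound by clock factors, was found in 5 (7.25%, against 8.09% and 11.01%). Each motif was searched on both strands and counted on its own, whether or not it overlapped another. The 250 bases before the start are printed in the direction of transcription, with the ETS motif in capitals (on the reverse strand it reads CTTCCGG).
Mrps27, chr13:99344536-99344785, plus strand: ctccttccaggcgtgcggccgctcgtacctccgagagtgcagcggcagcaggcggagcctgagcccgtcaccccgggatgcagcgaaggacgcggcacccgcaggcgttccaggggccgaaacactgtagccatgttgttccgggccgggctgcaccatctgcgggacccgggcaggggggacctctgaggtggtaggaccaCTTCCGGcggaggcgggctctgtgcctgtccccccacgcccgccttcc
Mrps22, chr9:98601680-98601929, minus strand: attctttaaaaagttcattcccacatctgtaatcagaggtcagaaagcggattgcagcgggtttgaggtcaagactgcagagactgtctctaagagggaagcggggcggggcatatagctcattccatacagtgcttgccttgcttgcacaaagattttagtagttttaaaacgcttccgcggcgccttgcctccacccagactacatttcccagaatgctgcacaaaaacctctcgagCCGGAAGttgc
Mrpl34, chr8:71464676-71464925, plus strand: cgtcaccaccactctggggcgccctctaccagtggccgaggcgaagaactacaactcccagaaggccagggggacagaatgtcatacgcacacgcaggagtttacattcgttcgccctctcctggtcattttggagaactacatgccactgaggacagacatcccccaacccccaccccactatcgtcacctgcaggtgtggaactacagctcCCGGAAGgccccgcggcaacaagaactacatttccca
Mrpl52, chr14:54426659-54426908, plus strand: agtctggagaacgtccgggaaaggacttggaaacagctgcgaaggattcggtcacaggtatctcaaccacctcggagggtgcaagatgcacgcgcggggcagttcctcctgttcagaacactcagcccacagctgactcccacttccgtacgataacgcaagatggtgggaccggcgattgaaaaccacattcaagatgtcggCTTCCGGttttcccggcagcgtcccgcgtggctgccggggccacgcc
Mrpl27, chr11:94653541-94653790, plus strand: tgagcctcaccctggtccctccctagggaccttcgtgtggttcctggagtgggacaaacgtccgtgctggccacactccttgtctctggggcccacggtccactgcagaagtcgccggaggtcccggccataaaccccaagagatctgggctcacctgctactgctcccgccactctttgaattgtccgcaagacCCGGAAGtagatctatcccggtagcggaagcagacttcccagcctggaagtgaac
The first 3 belong to the former class, with shifts of 11.8, 9.88 and 11.8 h, and the last 2 to the latter. All 5 come from the genes with the motif, so their sharing it says nothing about the classes. Of the genes described below as phase-inverted, 5 of 8 with a promoter held the ETS motif, as did 3 of 6 phase-locked ones.

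To ask when these genes oscillate, a 24-h cosine was fitted in each regimen. Under DRF 59 of the 78 genes (75.6%) were rhythmic, where 35.2% of all genes were. Under NRF 35 (44.9%) were, where 43.7% of all genes were. Many genes in the table are barely expressed. Among genes with a mean of at least 1 scaled count, 61 of 77 mitoribosomal protein genes (79.2%) passed under DRF and 37 (48.1%) under NRF, against 54.7% and 61% of such genes. The difference in rhythm itself passed the test in 40 of the 78 genes (51.3%), where 38.8% of all genes did, and in 46 of 77 (59.7%) among expressed genes, where 57% did, so the share with a different rhythm was near that of other expressed genes. In all, 23 genes were rhythmic in both regimens (background 23.4%), 36 under DRF alone (11.8%), 12 under NRF alone (20.3%) and 7 in neither (44.5%). Rhythm in a single regimen is no test of the difference, which was called in 18 of the 36, in 7 of the 12 and in none of the 7, where it was called in 53.4%, 58.9% and 4.21% of all genes of the same status. The 7 were Mrpl17, Mrpl23, Mrpl47, Mrps23, Mrps24, Mrps31 and Mrps33. By subunit, 40 of 51 large-subunit and 18 of 26 small-subunit genes were rhythmic under DRF, and 24 and 15 had a rhythm difference. Whether the subunits differ was not tested. With the values as deposited, a rhythm was called in 37 genes for DRF and in 34 for NRF, and with Kendall's rank test in 54 and 22. No share over all genes is given for either setting, here or below. Counts under these settings therefore cannot be set against those of other genes. Livers spread more in some NRF groups: the SD of the mean log2 deviation over the 78 genes was 0.20 at NRF ZT12 and 0.03 at DRF ZT12, and its part in the counts was not tested.

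**Figure D1:**
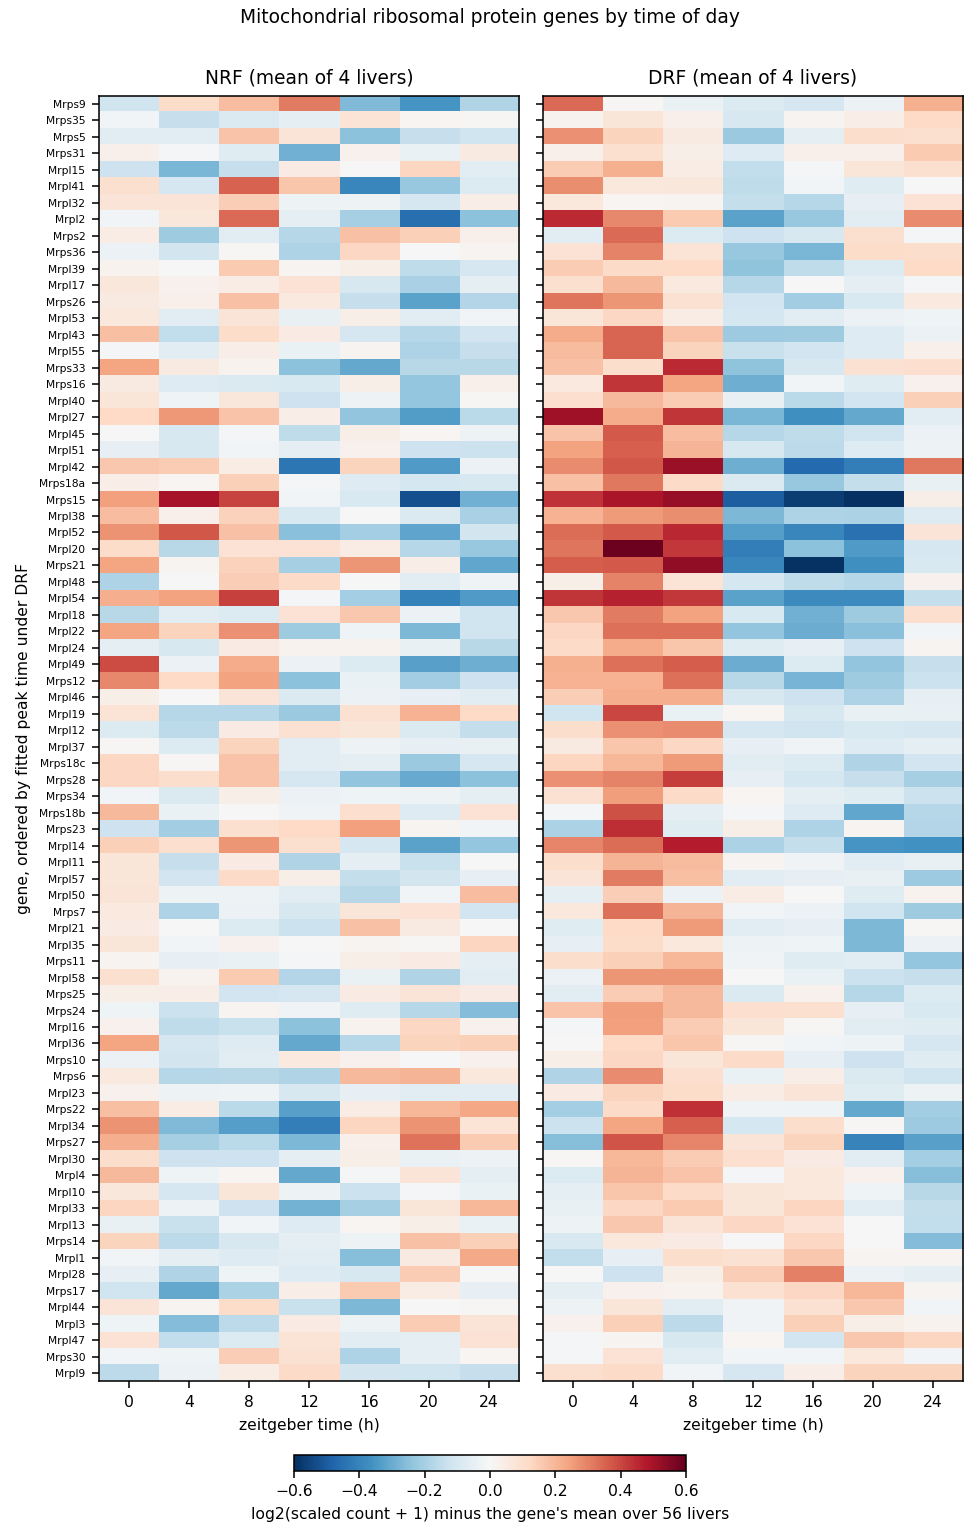
Rows are the 78 genes, ordered by fitted peak under DRF, and columns are times in each regimen. Colour gives the mean of 4 livers as log2(scaled count + 1) minus the gene's mean over 56 livers. Most rows are red at ZT4 and ZT8 under DRF, and under NRF red falls at different times in different rows.

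Fitted peaks of the genes called rhythmic gathered at one time of day under DRF and not under NRF. The windows used to count them were not part of the planned comparisons, and peak counts with exon length corrected are not given. Of the 59 genes rhythmic under DRF, 53 peaked from ZT2 to ZT10 and 1 from ZT16 to ZT24, where 40.5% and 35.4% of all genes rhythmic under DRF did. Of the 35 rhythmic under NRF, 16 peaked from ZT2 to ZT10 and 15 from ZT16 to ZT24, where 45.3% and 34.3% of all rhythmic genes did. Median amplitudes of the genes called rhythmic were 0.21 (log2) in both regimens. Only genes that passed the rhythm test entered these medians, and passing needs a sufficient amplitude. They therefore do not compare the amplitude of the whole set between the regimens. The highest group mean fell at ZT4 in 39 and at ZT8 in 22 of the 78 genes under DRF, whereas under NRF it fell at ZT8 in 25, at ZT0 and ZT20 in 13 each and at ZT4 in 3. The 6 genes with a DRF rhythm outside ZT2 to ZT10 were Mrps9 (0.69 h), Mrps5 (0.924 h), Mrpl15 (1.69 h), Mrpl13 (10.3 h), Mrpl28 (14.6 h) and Mrpl9 (23.2 h). The widest DRF rhythm was that of Mrps15, with an amplitude of 0.69 ± 0.12 (log2, SE) and a peak at 4.61 h, and it was also rhythmic under NRF. Mrps21, next at 0.57 ± 0.12, had an adjusted p of 0.945 for rhythm under NRF and 0.00693 for the difference in rhythm.

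The 12 genes rhythmic under NRF alone were Mrpl1, Mrpl3, Mrpl4, Mrpl36, Mrpl41, Mrpl44, Mrpl50, Mrps2, Mrps14, Mrps17, Mrps30 and Mrps35. Their NRF peaks lay from 16.8 h for Mrps17 to 23.3 h for Mrpl4 and from 0.623 h for Mrpl1 to 7.06 h for Mrps30, and none fell between 7.06 and 16.8 h. Mrpl36, the homolog of a small zinc-binding protein of the bacterial large subunit, had the most certain difference in rhythm among them, with an NRF peak at 23.3 ± 0.697 h (SE).

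Of the 23 genes rhythmic in both regimens, 10 were phase-inverted (a shift of 8 to 12 h) and 8 phase-locked (up to 4 h), and 5 lay between. Among all 5865 genes rhythmic in both, 50.7% were phase-inverted and 24.6% phase-locked. The inverted genes were Mrpl15, Mrpl19, Mrpl18, Mrps22, Mrpl33, Mrpl9, Mrpl16, Mrps6, Mrpl34 and Mrps27. Of these, 8 peaked after ZT16 under NRF, Mrpl18 at 14.4 h, and Mrpl9 ran the other way, from 9.78 h under NRF to 23.2 h under DRF. The locked genes were Mrps28, Mrpl52, Mrps18c, Mrpl14, Mrpl27, Mrps15, Mrpl54 and Mrpl32, with peaks from 4.59 to 7.53 h under NRF and from 2.37 to 6.17 h under DRF. Exons of the locked genes were shorter (median 1031 bases) than those of the inverted genes (2398 bases). After a correction for exon length, 23 genes were again rhythmic in both, 19 of them the same, and all 7 locked and 7 inverted genes still in this set kept their class.

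**Figure D2:**
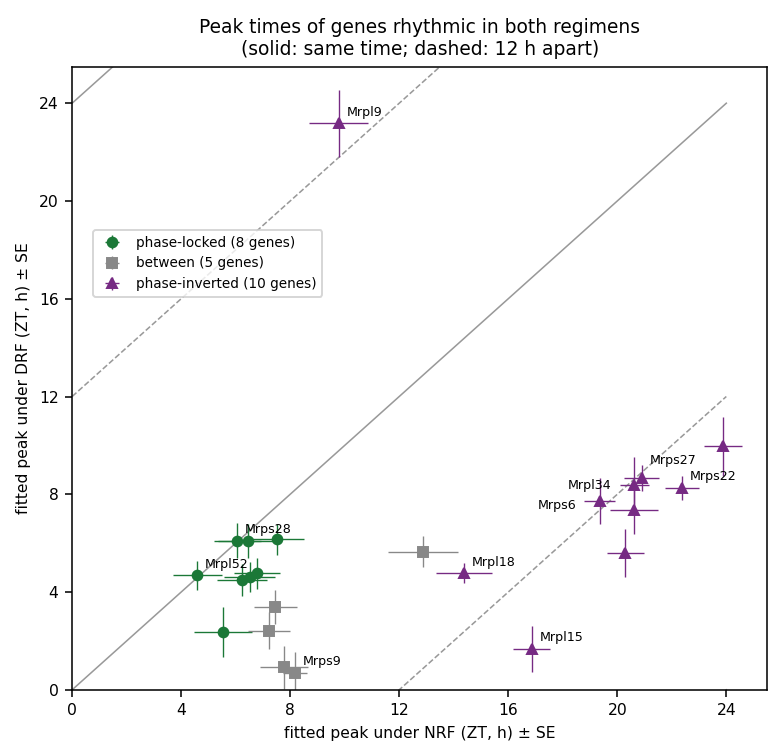
Fitted peak time under NRF (x axis) and DRF (y axis), in hours of ZT with standard errors, for the 23 genes rhythmic in both regimens. The 8 phase-locked genes lie near the solid line of equal times, and the 10 phase-inverted genes nearer the dashed lines of 12 h, with Mrpl9 apart from the others at the upper left.

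The 6 genes with the smallest adjusted p for the rhythm difference were Mrps22, Mrps27, Mrpl18, Mrps9, Mrpl34 and Mrps6. Mrps27 (ENSMUSG00000041632, chromosome 13, 99344786 to 99415562, plus strand, GRCm38) encodes an RNA-binding protein of the small subunit. Under DRF its 4 livers held 97.0, 89.4, 87.1 and 103 scaled counts at ZT4 and 50.9, 55.3, 61.6 and 50.9 at ZT20. Under NRF they held 59.5, 67.2, 60.4 and 64.6 at ZT4 and 73.8, 105, 88.5 and 98.3 at ZT20. The regimens did not overlap at either time, and their order was opposite. The difference was 0.57 ± 0.10 (log2, SE) at ZT4 (limma adjusted p = 1.68e-05) and -0.72 at ZT20 (adjusted p = 3.45e-07). The fitted peak was 20.9 h for NRF and 8.67 h for DRF, a shift of 11.8 ± 0.837 h (SE), with an adjusted p of 3.41e-10 for the rhythm difference. Of its exon bases, 24.2% overlap an opposite-strand gene.

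Mrps22 (ENSMUSG00000032459, chromosome 9, 98588730 to 98601660), a small-subunit protein found in mitochondria and not in bacteria, held 13.7, 13.0, 10.4 and 14.2 scaled counts at ZT8 under DRF. At ZT8 under NRF it held 8.56, 8.75, 7.17 and 7.87, all below the 4 DRF livers. At ZT20 the order turned, with a mean of 7.21 ± 0.321 (SD, n = 4) under DRF and 10.7 ± 0.826 under NRF. Its peak moved to 8.26 h with DRF from 22.4 h with NRF (shift 9.88 ± 0.78 h, limma adjusted p = 4.96e-11 for the rhythm difference), which was the smallest of the 78. At ZT4 it was not called (0.07 ± 0.09, adjusted p = 0.665).

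Mrpl18 is a large-subunit homolog of a bacterial ribosomal protein. Its fitted amplitude was 0.32 ± 0.04 (log2, SE) under DRF and 0.14 ± 0.04 under NRF. Its 4 DRF livers at ZT4 held 14.2, 15.6, 15.6 and 15.7 scaled counts, above the NRF livers at 11.02, 11.4, 12.2 and 11.4 (adjusted p = 0.0041). Mrps9, a small-subunit protein with a bacterial homolog, ran against most of the set. It was highest at ZT0 under DRF (23.1 ± 1.75, SD, n = 4) and at ZT12 under NRF (22.6 ± 1.65), and it was lower under DRF at ZT8 and ZT12 (log2 differences of -0.22 and -0.40) and higher at ZT20 (0.32), with adjusted p of 0.0452, 0.000177 and 0.0027. Mrps5 had similar fitted peaks, at 7.77 h under NRF and 0.924 h under DRF, against 8.17 and 0.69 h for Mrps9. Mrpl34, the shortest of the set at 607 exon bases, had a larger fitted amplitude under NRF (0.37 ± 0.05) than under DRF (0.17 ± 0.05) and a shift of 11.8 ± 1.24 h. Its mean at ZT8 was 6.55 ± 1.01 under DRF and 3.67 ± 0.339 under NRF, with no overlap. Mrps6, expressed at 1.32 scaled counts on average, shifted by 11.6 ± 1.1 h, and its ZT4 livers held 1.77, 1.41, 2.06 and 2.03 under DRF and 1.03, 0.911, 1.2 and 1.05 under NRF. Of its exon bases 19.9% overlap genes on the same strand. Mrpl33, also among the strongest rhythms under NRF, peaked at 23.9 h there and at 9.96 h under DRF.

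Among the strongest rhythms under DRF was also Mrpl20, a large-subunit protein with a bacterial homolog. Under DRF it held 15.6, 14.3, 14.1 and 15.7 scaled counts at ZT4 and 5.53, 7.13, 7.51 and 7.75 at ZT12, and the amplitude was 0.49 ± 0.08 (limma adjusted p = 9.09e-06). Under NRF no rhythm was called (adjusted p = 0.445), the ZT12 livers were spread from 5.37 to 18.2, and the rhythm difference had an adjusted p of 0.000392.

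**Figure D3:**
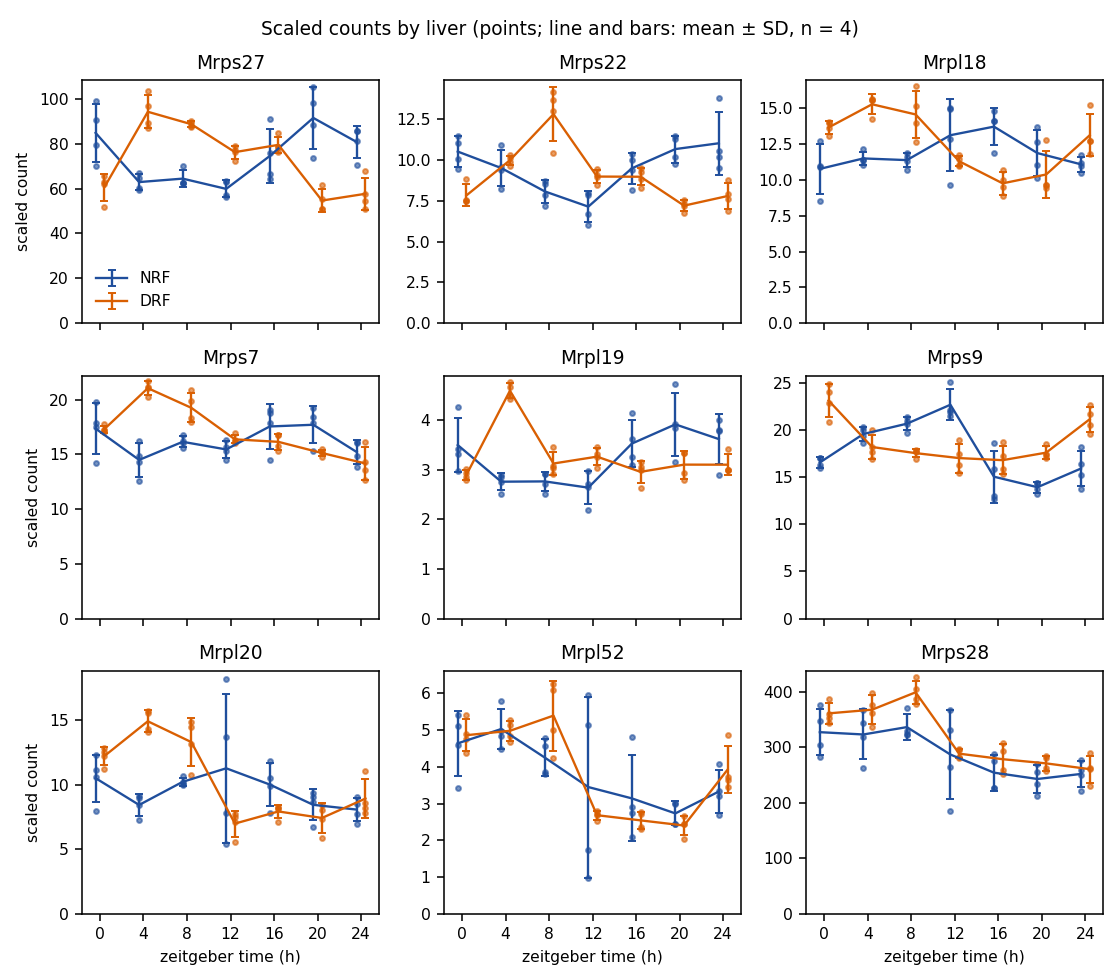
Scaled counts (y axis, from 0) against ZT for 9 named genes, with livers as points and group means ± SD (n = 4) as lines in blue for NRF and orange for DRF. Mrps27 and Mrps22 cross over between day and night, Mrps9 runs against them, and Mrpl52 and Mrps28 fall towards ZT20 in both regimens, with livers widely spread at NRF ZT12.

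The smallest shifts among the 23 genes rhythmic in both regimens were those of Mrps28 and Mrpl52. Mrps28 peaked at 6.06 h under NRF and 6.09 h under DRF, a shift of 0.0283 ± 1.11 h, with an adjusted p of 0.932 for the rhythm difference. At ZT8 its livers held 405, 379, 386 and 426 scaled counts under DRF and 324, 330, 370 and 321 under NRF, with no overlap, and at ZT20 the means were 271 ± 13.9 and 243 ± 25.6. Mrpl52, a protein particular to mitochondrial ribosomes, had its DRF peak at 4.68 h and its NRF peak at 4.59 h (shift 0.0911 ± 1.07 h), with amplitudes of 0.51 ± 0.09 and 0.33 ± 0.08. A standard error of about 1 h on these shifts leaves room for shifts of some 2 h, and a large p does not show that the rhythms were the same.

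At the same time of day, the regimens differed most at ZT4, when DRF mice had food and NRF mice had none. There 34 of the 78 genes (43.6%, against 20.5% of all genes called in either direction) were higher under DRF, where 10.9% of all genes were, and 0 were lower, where 9.52% of all genes were. Among expressed genes the shares were 46.8% of 77 genes higher, against 18.8%. The median log2 difference of the 78 genes was 0.23, with 73 above 0, and the median of all genes tested was -0.0031. In 41 genes the 4 DRF livers all lay above the 4 NRF livers, where 11.9% of all genes showed this. The 34 called genes were 22 of 51 of the large and 12 of 26 of the small subunit, with differences from 0.19 to 0.76 (log2). The 3 with the smallest p were Mrpl19, Mrps7 and Mrps2, which have bacterial homologs. Mrpl19 held 4.43, 4.67, 4.77 and 4.49 scaled counts at ZT4 under DRF and 2.86, 2.9, 2.75 and 2.52 under NRF (0.57 ± 0.08, adjusted p = 6.21e-07). Mrps7 held 21.2, 21.03, 20.3 and 21.7 under DRF and 12.6, 14.8, 16.3 and 14.3 under NRF (0.51 ± 0.07, adjusted p = 8.51e-07). Mrps2 held 7.42, 7.43, 7.65 and 8.62 under DRF and 5.05, 5.08, 5.17 and 4.63 under NRF (0.55 ± 0.08, adjusted p = 2.12e-06). None of the 3 overlapped between the regimens. The widest differences after that of Mrpl20 (0.76) were those of Mrps23 (0.65), Mrpl19 and Mrps27, and the smallest called was that of Mrpl53 (0.19), whose low level limits the log2 difference. The 5 genes below 0 at ZT4 were Mrps9 (-0.10), Mrpl32 (-0.07), Mrpl27 (-0.04), Mrpl52 (-0.01) and Mrps15, none of them called. Mrpl19 and Mrps7 have 36% and 11.9% of exon bases in opposite-strand genes.

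**Figure D4:**
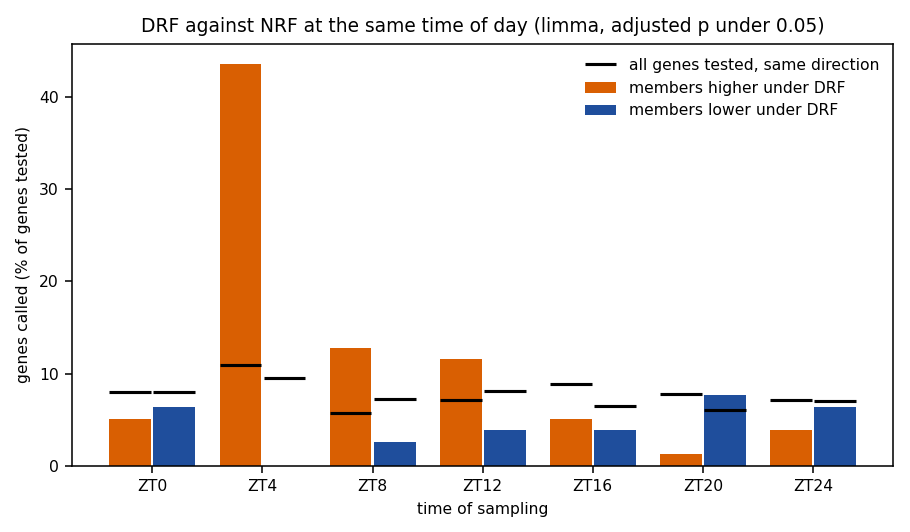
Share of the 78 genes called higher (orange) or lower (blue) under DRF at each time, as a percentage, with black lines for all 25075 genes tested in the same direction. At ZT4 the orange bar reaches 43.6% and there is no blue bar.

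Fewer genes were called at the other times. At ZT8, 10 genes were higher and 2 lower, where 5.78% and 7.3% of all genes were (13.1% in all). At ZT12, 9 were higher and 3 lower, against 7.13% and 8.16% of all genes (15.3% in all). At ZT0, 4 were higher and 5 lower (all genes 7.99% and 8.04%, in all 16%), and at ZT16, 4 higher and 3 lower (8.83% and 6.49%, in all 15.3%). At ZT20, 1 was higher and 6 lower (7.78% and 6.09%, in all 13.9%), and at ZT24, 3 higher and 5 lower (7.1% and 6.98%, in all 14.1%). Mrps27 and Mrps22 were among those lower at ZT20.

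Short genes were relatively higher in some groups, and that moves with this result. A length index was computed per library as the rank correlation, across 13755 expressed genes, of exon length with the deviation of a gene from its mean. It was -0.22 ± 0.0488 (SD, n = 4) at DRF ZT4, -0.23 ± 0.0583 at DRF ZT8, -0.063 ± 0.168 at NRF ZT4 and -0.15 ± 0.0595 at NRF ZT8, and between 0.042 and 0.18 in the groups from ZT12 on. At ZT0 it was -0.12 ± 0.066 under DRF and -0.18 ± 0.153 under NRF. ZT24 is the same time of day, and there it was 0.17 ± 0.0598 and 0.18 ± 0.0968, so the index did not depend on time of day alone. The 78 genes are short (median 2214 exon bases against 3944 for expressed genes), and their mean deviation and the index had r = -0.755 over the 56 libraries, which share depth and normalisation. With exon length corrected, 30 genes were still higher at ZT4 (9.53% of all genes) and 57 rhythmic under DRF (45.7%), and 44 differed in rhythm (36.3%). The part of length in these results beyond this correction was not tested.

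**Figure D5:**
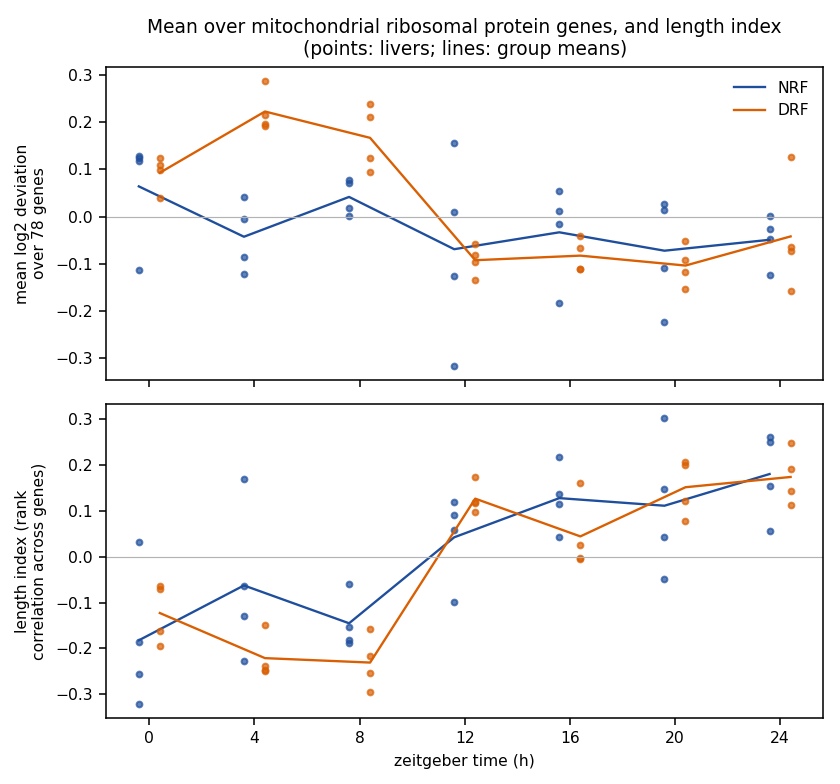
Upper panel, mean over the 78 genes of log2(scaled count + 1) minus each gene's mean; lower panel, length index, both against ZT, with livers as points and group means as lines. The gene mean is highest at DRF ZT4, where the 4 livers lie between 0.19 and 0.29, and the index is lowest at DRF ZT8 and DRF ZT4.

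To ask whether the genes followed the feeding schedule, groups were matched on hours since food became available. Around food onset itself, at DRF ZT0 against NRF ZT12, no gene was called (2.72% of all genes, 1.29% higher and 1.42% lower), with 22 at an unadjusted p under 0.05, and with median-of-ratios scaling there were again 0. The median difference was 0.13 (log2), with 65 of 78 genes above 0, and the NRF ZT12 livers were the most spread, with mean deviations over the 78 genes from -0.32 to 0.16. At DRF ZT4 against NRF ZT16, 28 genes were higher and 0 lower (all genes 8.95% and 5.91%, in all 14.9%), with a median of 0.25 (log2). At DRF ZT8 against NRF ZT20, 23 were higher and 1 lower (6.57% and 5.21%, in all 11.8%), the lower one being Mrpl19 (-0.25). Among the higher were 7 phase-locked genes, Mrps18c (0.48), Mrps15 (1.05), Mrpl54 (0.83), Mrpl14 (0.79), Mrpl52 (0.77), Mrpl27 (0.76) and Mrps28 (0.72), together with Mrpl42 (0.86). The phase-locked genes were classed from these same livers, with fitted peaks before ZT8 in both regimens. Their higher values at DRF ZT8 than at NRF ZT20 follow from that class and say nothing further about feeding. With exon length corrected, 15 (6.74%) were higher at DRF ZT4 against NRF ZT16 and 22 (5.99%) at DRF ZT8 against NRF ZT20. With the values as deposited, 4 and 10 genes were called in either direction for these 2 pairs, where 28 and 24 were called with rebuilt counts. At DRF ZT12 against NRF ZT24, no gene was called (1.6% of all genes, 0.841% higher and 0.762% lower), with 6 at an unadjusted p under 0.05 and 0 with median-of-ratios scaling. When food had been withdrawn, at DRF ZT16 against NRF ZT4, 8 were higher and 6 lower (9.65% and 7.73%, in all 17.4%), and at DRF ZT20 against NRF ZT8, 3 higher and 9 lower (8% and 8.54%, in all 16.5%). Groups recur in these comparisons and in those at the same time of day, so they are not independent.

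Within a regimen, ZT4 and ZT16 were compared. Under DRF 39 genes were higher at ZT4 and 1 lower (all genes 11.7% and 10.4%, in all 22.1%), and under NRF 5 were higher and 8 lower (13.7% and 10.5%, in all 24.2%). Between ZT0 and ZT12, 20 were higher at ZT0 and 1 lower under DRF (9.47% and 8.5%, in all 18%), and 12 higher and 2 lower under NRF (9.82% and 9.94%, in all 19.8%). With the values as deposited, 21 genes were called between ZT4 and ZT16 in each regimen. Between ZT24 and ZT0, Mrps28 and Mrpl49 fell and 0 rose under NRF (8.02% of all genes called, 5.65% lower and 2.36% higher) and Mrps28, Mrps11, Mrps7, Mrps34 and Mrpl14 fell and 0 rose under DRF (3.09%, 1.65% lower and 1.44% higher), and the change differed between the regimens in 0 genes (0.00399% of all genes), with 2 at an unadjusted p under 0.05 and 0 with median-of-ratios scaling. The median log2 difference of the 78 genes, ZT24 minus ZT0, was -0.071 under NRF, with 25 above 0, and -0.11 under DRF, with 18 above 0. Among expressed genes the medians were -0.0054 and -0.023. The 24-h cosine gives ZT0 and ZT24 the same fitted value, and the part of this fall in the rhythm results was not tested. With the values as deposited, 16 genes differed between ZT24 and ZT0 under NRF and 1 under DRF, so the order of the regimens turned.

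The rhythm-adjusted mean differed in 5 genes, all higher under DRF, a share (6.41%) near that of all genes (6.9%, of which 4.19% were higher and 2.71% lower). They were Mrps24 (0.19 ± 0.04, adjusted p = 0.00199), Mrps17 (0.12 ± 0.03, adjusted p = 0.0184), Mrpl13, Mrpl15 and Mrpl16. Mrps33, Mrps28 and Mrpl34 had differences of 0.17 ± 0.08, 0.14 ± 0.06 and 0.12 ± 0.05 that did not pass. The Mrps24 exons overlap Urgcp on the same strand over 15.4% of their bases.

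The Mrps18 proteins are 3 relatives of a single bacterial protein that take different places in the ribosome. Mrps18a, of the large subunit, and Mrps18b, of the small subunit, were rhythmic under DRF (adjusted p = 9.16e-05 and 0.0232) and not called under NRF (0.172 and 0.783). Mrps18c was rhythmic in both and phase-locked, at 6.44 h under NRF and 6.09 h under DRF. At ZT4 the differences between regimens were 0.30 ± 0.11 (adjusted p = 0.0551), 0.42 ± 0.14 (0.0204) and 0.19 ± 0.09 (0.134), and no rhythm difference passed the test in any of the 3. Mrps30 was rhythmic under NRF (adjusted p = 0.0127) and not called under DRF (0.764), and Mrps36 was rhythmic under DRF (0.00624), with an adjusted p of 0.036 for the rhythm difference.

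Other genes of mitochondrial translation were taken as lists, to be read against the shares over all genes. Of all genes, 35.2% were rhythmic under DRF, 38.8% differed in rhythm, and 10.9% were higher and 9.52% lower at ZT4. Among expressed genes these shares were 54.7%, 57%, 18.8% and 13.7%. Of 5 mitoribosomal proteins with other symbols, 3 were rhythmic under DRF, 3 differed in rhythm and 3 were higher at ZT4. Ptcd3, of the small subunit, peaked at 18.4 h under NRF and 11.8 h under DRF and was higher at ZT4 (0.32 ± 0.07, adjusted p = 0.000726), as was Chchd1 (0.26 ± 0.09, 0.0326), while Gadd45gip1 differed in rhythm (0.02). Of 26 assembly factors, 11 were rhythmic under DRF and 10 differed in rhythm, the latter a share near that of all genes. Rbfa, Mterf4 and Mettl15 had the smallest adjusted p for the difference. Rbfa, which binds the small subunit during assembly, peaked at 8.92 h under NRF and at 0.0622 h under DRF, and Mterf4 was lower at ZT4 under DRF (-0.42 ± 0.10, 0.00194). At ZT4, 8 assembly factors were higher and 1 lower.

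Of 11 translation factors 7 differed in rhythm. Gfm1 and Gfm2 peaked at 20.2 and 21.7 h under NRF. Under DRF they peaked at 12.4 and 15.1 h, later than most ribosomal proteins. The recycling factor Mrrf peaked at 20.6 h under NRF and 14.8 h under DRF. Of 17 aminoacyl-tRNA synthetases of mitochondria, 14 differed in rhythm, Cars2, Ears2 and Yars2 most. Of the 8 rhythmic under DRF, 1 peaked from ZT2 to ZT10, where 40.5% of all genes rhythmic under DRF did. Ears2, which charges glutamate, peaked at 21.1 h under NRF and 7.7 h under DRF. Of 17 factors for mitochondrial transcription and messenger RNA, 13 differed in rhythm and 7 were higher at ZT4, Lrpprc and Tbrg4 among them (0.46 ± 0.07 and 0.45 ± 0.09), while Pnpt1 shifted from 21.2 to 12.7 h.

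Of 10 regulators of nuclear genes for mitochondria, 9 differed in rhythm, Ppara, Ppargc1b and Ppargc1a most. Ppara peaked at 11.1 h under NRF and 23.5 h under DRF, Ppargc1b at 9.99 and 21.9 h and Ppargc1a at 10.96 and 21.04 h. Gabpa, which encodes the DNA-binding subunit of the ETS factor GABP, was lower at ZT4 under DRF (-0.43 ± 0.07, limma adjusted p = 1.46e-05), and Esrra was higher (0.81 ± 0.13, 6.13e-06). Nrf1 had no rhythm called in either regimen and an adjusted p of 0.779 for the difference.

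The subunits of the respiratory chain and ATP synthase encoded in the nucleus are in part partners of the proteins these ribosomes make. At ZT4, 23 of 82 were higher and 1 lower, with a median of 0.23 (log2), as for the 78 genes. Of these 82 genes, 16 differed in rhythm, against 40 of the 78. A higher rhythm-adjusted mean under DRF was called in 37, against 5 of the 78 and 4.19% of all genes. Of 20 rhythmic in both, 18 were phase-locked, where 24.6% of all genes rhythmic in both were. Cox7a2l, Ndufv2 and Ndufa8 had the smallest p for the rhythm difference. Of 82 cytosolic ribosomal proteins, 28 were rhythmic under DRF, 2 were higher at ZT4 and 7 differed in rhythm, with Rpl7l1, Rpl36al and Rpsa first. Their median at ZT4 was 0.15 (log2), with 72 of 82 above 0, and at DRF ZT4 against NRF ZT16 it was 0.23, against 0.25 for the 78 genes. Rpl7l1 was higher at ZT4 by 0.69 ± 0.09. These differences between lists were not tested. Values rebuilt for 12 messenger RNAs of mitochondrial DNA were erratic between livers, with mt-Co1 from 0.202 to 10278 scaled counts. Of the 12, 4 had a mean under 1 scaled count, and whether these counts were rebuilt correctly was not tested. The rhythm difference called in 3 of them (mt-Nd2, mt-Nd1 and mt-Nd6) is therefore uncertain. No relation of the ribosomal genes to the messages they translate was examined.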

How the data were processed

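RNA from 56 mouse livers was sequenced by the authors as strand-specific libraries after ribosomal RNA depletion, though another label names polyA RNA. The submitters' processing notes name CASAVA 1.8, featureCounts 1.5.0-p3, mm10 and GRCm38.p6. The aligner, and whether counting used strand, are not given in the sources used here. The deposited gene values, labelled TPM by the authors, were treated as a score, because each value times exon length followed a logarithm of a whole count and so was not linear in reads. Counts were rebuilt from that relation with a tolerance of 0.05 (0.2 for a few genes), scaled per library and analysed as log2(scaled count + 1). No count could be rebuilt for 340 genes. The table of circular RNAs gave no coordinates, so those inside these genes were not analysed.

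One limma 3.58.1 model (R 4.3.3) with a trend gave 24-h rhythms per regimen and their difference, and another, over 14 groups, the contrasts between groups. Benjamini-Hochberg adjustment ran over all genes tested, with a threshold of 0.05. Tables were made with Python 3.11.15, and the scripts were tested on simulated data. Nothing beyond the animals says how the replicates were processed. The p-values set differences against the spread between these livers, which was estimated per gene over all groups together, although some groups were more spread. The replicate numbers did not pair the samples. The members and gene lists were chosen with earlier results of these data known. Genes were named by smallest adjusted p for the rhythm difference (6), for rhythm in each regimen (4) and at the time with most calls (3), by largest difference in rhythm-adjusted mean (4), by highest and lowest level per kb (3 each), by smallest and largest phase shift (2 each), as the Mrps18 relatives and as up to 3 per list. Mrps30 and Mrps36 were named for their place in the ribosome or outside it, and Gabpa, Esrra and Nrf1 for the motifs, after their values were seen, as were short lists of called genes and the widest values among them. Alternatives were Kendall's test for rhythm, deposited values, median-of-ratios scaling, a minimum mean, a length correction, a replicate block, and leaving out ZT24 or replicates.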

Additional observations from a re-analysis of the deposited data

Results flagged for a closer look

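In 18 of 350 groups of 4 livers of the named genes, 1 liver stood apart by Dixon's criterion, which chance alone gives in about 1 of 20 groups. Under DRF, the high livers were replicate 4 at ZT0 for Mrps22 (8.84 scaled counts), replicate 4 at ZT20 for Mrpl18 (12.8), replicate 3 at ZT12 for Mrps24 (13.8), replicate 1 at ZT8 for Mrpl14 (96.5), replicate 3 at ZT24 for Mrpl19 (3.42) and replicate 3 at ZT20 for Mrps2 (7.32). At DRF ZT4, replicate 2 was high for Mrps18a (17.4) and Mrps18c (4.98) and low for Mrps12 (30.1), replicate 4 was high for Mrps36 (8.04) and replicate 1 low for Mrpl18 (14.2). At DRF ZT16, replicate 2 was low for Mrpl20 (7.14). Under NRF, replicate 2 at ZT12 was high for Mrps9 (25.1) and Mrps25 (2.03) and low for Mrps6 (0.885). Replicate 2 at ZT8 was high for Mrps27 (70.3), replicate 4 at ZT4 low for Mrpl33 (4.43) and replicate 3 at ZT16 high for Mrpl32 (2.28). Between the regimens, the 24-h rhythm differed in 40 genes by limma's test of the difference.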

How the results depend on the processing

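Counts of called genes among the 78 depended on the processing as follows, and the cause was not tested. Shares over all genes are not given beside the counts of this section, so they describe the 78 genes alone. With Kendall's test, 22 were rhythmic under NRF and 14 in both regimens. With the deposited values, 37 were rhythmic under DRF and 15 in both, 5 differed at ZT8 and 4 at ZT20, 4 at DRF ZT4 against NRF ZT16 and 10 at DRF ZT8 against NRF ZT20. There, 16 (NRF) and 1 (DRF) differed between ZT24 and ZT0, and 21 in each regimen between ZT4 and ZT16. With the length correction, 3 differed in rhythm-adjusted mean, 15 at DRF ZT4 against NRF ZT16, 1 at DRF ZT12 against NRF ZT24 and 5 between ZT24 and ZT0 under NRF. Over genes with a mean of at least 1, 1 differed at DRF ZT0 against NRF ZT12, 1 at DRF ZT12 against NRF ZT24 and 4 between ZT24 and ZT0 under NRF. Median-of-ratios scaling gave 1 for the last. With a replicate block, 35 differed at ZT4, 41 in rhythm and 1 at DRF ZT12 against NRF ZT24, and no other count moved by over 1.5 times. Samples with the same number did not deviate together (correlations across genes of 364 pairs from -0.379 to 0.306, with a mean of 0.0045).

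Leaving out each replicate number, or single livers, gave 23 to 39 genes rhythmic under NRF, 41 to 60 under DRF, 13 to 29 in both, 28 to 47 with a rhythm difference and 0 to 6 with a different rhythm-adjusted mean. It gave 5 to 12 at ZT0, 18 to 36 at ZT4, 3 to 12 at ZT8, 3 to 14 at ZT12, 1 to 7 at ZT16, 4 to 9 at ZT20 and 3 to 9 at ZT24. For the food-matched pairs in order from DRF ZT0 it gave 0 to 8, 6 to 33, 8 to 30, 0 to 1, 2 to 16 and 3 to 21. Between ZT24 and ZT0 it gave 0 to 6 under NRF and 0 to 7 under DRF, between ZT4 and ZT16 7 to 17 and 18 to 42, and between ZT0 and ZT12 10 to 19 and 8 to 26. The lowest count at ZT4, 18, came without replicate 4 and the next, 20, without replicate 1. Chosen after seeing the data, leaving out NRF ZT12 replicate 3 gave 3 genes with a different rhythm-adjusted mean and 21 at DRF ZT20 against NRF ZT8. Leaving out NRF ZT16 replicate 3 gave 3 at ZT16, 1 at DRF ZT0 against NRF ZT12, 1 at DRF ZT12 against NRF ZT24 and 5 between ZT24 and ZT0 under NRF. No alternative turned the sign of a called difference in a named gene.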
